A study of Homo sapiens with 6 samples.

Results

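The comparison described here set Huh7 cells given a statin against Huh7 cells given native low-density lipoprotein (nLDL). It used the 2 arrays titled for the statin and the 2 arrays titled for LDL, which are 4 of the 6 arrays of the study, and all probe sets of the deposited value table. Huh7 is an established human liver cancer cell line. Cells of all groups were kept for 24 h in DMEM with 10% FBS, so lipoproteins of the serum were present throughout. One group received a statin at 5 µM to deplete cholesterol, and the other received nLDL at 120 µg/ml to enrich it. The remaining group of 2 arrays received the vehicle only and had no part in the test, and its values are given beside the others as a description. Total RNA was hybridised to Affymetrix U133 Plus 2.0 arrays, and values are log2 intensities per probe set. The titles number the 2 arrays of a group as replicates, and the authors' methods call them biological replicates. How separate the cultures were is not stated, so p-values measure the spread between these arrays. Cholesterol itself was not measured on the arrays.

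Liver cells obtain cholesterol by making it from acetyl-CoA through the mevalonate pathway and by taking up lipoproteins. When sterols in the endoplasmic reticulum are scarce, the escort protein SCAP carries SREBP transcription factors to the Golgi apparatus, where proteases release the active fragment, and genes of sterol synthesis and uptake are switched on. When sterols are abundant, INSIG proteins hold SCAP back. Statins block HMG-CoA reductase, which also cuts the supply of the isoprenoids that anchor many signalling proteins to membranes, whereas LDL delivers cholesterol through endocytosis. The contrast of statin with nLDL therefore spans both directions of cholesterol supply, and effects of the drug and of the lipoprotein on one gene cannot be told apart in it.

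Promoter sequences are shown first for 5 sterol genes, because MVK and MMAB share one promoter region and because CCAAT boxes stood in most promoters of the sterol genes that rose. MVK (mevalonate kinase) and MMAB (the adenosyltransferase of vitamin B12 metabolism) lie head to head on chromosome 12. Each window holds 250 bases before and 50 bases after the RefSeq start site of the gene (build GRCh38.p14) and is written 5′ to 3′ on the strand of the gene. Capitals mark CCAAT or its reverse complement ATTGG. The windows are FDPS chr1:155308616-155308915 (plus strand), MSMO1 chr4:165327419-165327718 (plus strand), NSDHL chrX:152830813-152831112 (plus strand), MVK chr12:109573544-109573843 (plus strand) and MMAB chr12:109573455-109573754 (minus strand).
FDPS: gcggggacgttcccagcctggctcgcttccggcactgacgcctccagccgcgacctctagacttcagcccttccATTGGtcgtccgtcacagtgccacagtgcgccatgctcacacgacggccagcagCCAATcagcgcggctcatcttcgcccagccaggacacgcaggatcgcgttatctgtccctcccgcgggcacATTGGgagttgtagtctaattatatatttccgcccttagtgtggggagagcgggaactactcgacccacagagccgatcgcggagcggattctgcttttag
MSMO1: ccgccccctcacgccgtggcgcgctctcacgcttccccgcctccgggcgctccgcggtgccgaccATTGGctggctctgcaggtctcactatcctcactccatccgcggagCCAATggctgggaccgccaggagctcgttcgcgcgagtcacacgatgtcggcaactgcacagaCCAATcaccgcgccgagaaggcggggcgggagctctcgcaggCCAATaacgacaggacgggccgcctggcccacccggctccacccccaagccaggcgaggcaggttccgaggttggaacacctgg
NSDHL: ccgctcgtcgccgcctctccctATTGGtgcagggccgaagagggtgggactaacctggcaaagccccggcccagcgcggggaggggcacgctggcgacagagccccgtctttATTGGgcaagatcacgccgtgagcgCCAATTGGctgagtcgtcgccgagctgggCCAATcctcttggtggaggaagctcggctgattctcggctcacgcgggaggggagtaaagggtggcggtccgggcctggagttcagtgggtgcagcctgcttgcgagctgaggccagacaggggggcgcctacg
MVK: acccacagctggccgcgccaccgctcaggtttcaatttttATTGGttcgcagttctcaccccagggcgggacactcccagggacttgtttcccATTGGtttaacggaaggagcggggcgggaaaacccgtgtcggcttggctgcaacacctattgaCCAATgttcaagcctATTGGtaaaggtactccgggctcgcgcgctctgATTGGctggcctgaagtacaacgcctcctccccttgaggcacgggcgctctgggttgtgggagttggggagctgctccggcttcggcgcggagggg
MMAB: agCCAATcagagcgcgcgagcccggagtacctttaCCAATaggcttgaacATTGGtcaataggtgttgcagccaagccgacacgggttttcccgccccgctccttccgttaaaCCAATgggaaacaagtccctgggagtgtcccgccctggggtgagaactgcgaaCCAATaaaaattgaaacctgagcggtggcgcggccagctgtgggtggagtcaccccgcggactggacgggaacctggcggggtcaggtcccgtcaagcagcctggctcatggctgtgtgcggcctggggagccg
The start sites of MVK and MMAB lie 290 bases apart, and their windows share 211 bases that hold all 5 CCAAT boxes of either gene. FDPS has 3 CCAAT boxes, MSMO1 has 4 and NSDHL has 5. In NSDHL the stretch CCAATTGG was counted on each strand, so the boxes in it share letters.

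Promoter windows were found for 36 of the 47 genes of the 5 sterol lists. CCAAT on either strand stood in 10 of the 11 windows of sterol genes that rose (90.9%), in 11 of the 24 windows of sterol genes that did not pass (45.8%), and in 34.6% of all 35093 promoter windows. The windows printed above are rich in boxes, whereas INSIG1, LSS, SC5D and TM7SF2, which rose, had 1 each and DHCR7 had 0. Of sterol genes that did not pass, OSBP had 5 and SPRING1 and TMEM97 had 3 each, while GGPS1, INSIG2 and PMVK had 0. Among all genes that rose, sterol genes included, CCAAT stood in 40 of 85 windows (47.1%), and among all genes that fell in 38 of 116 (32.8%). GGGCGG, the GC box, stood in 10 of the 11 (90.9%), in 19 of the 24 (79.2%) and in 44.9% of all windows. Among all genes that rose GGGCGG stood in 59 of 85 windows (69.4%), and among all that fell in 72 of 116 (62.1%). TCACNCCAC, the core of a sterol response element, stood in 0 of the 11, in 1 of the 24 (4.17%) and in 1.13% of all windows. That 1 match was TCACCCCAC in the promoter of SREBF2, which encodes SREBP2. TCACNCCAC stood in 3 of 85 windows (3.53%) of all genes that rose and in 0 of 116 of all that fell. Both strands were read, neighbouring matches may share end letters, and a match is a description of letters only.

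At the level of probe sets, 207 of 54613 were higher with statin (0.379% of those tested) and 251 were lower (0.46%) at a limma adjusted p under 0.05. Of these, 56 were at least 2-fold higher and 73 at least 2-fold lower. Taking each gene at its brightest probe set, 122 of 21299 genes were higher (0.573%) and 142 lower (0.667%). These shares over all genes are the ones to set beside every count of list genes that rose or fell below. Without adjustment, 3873 probe sets were higher and 3992 lower at p under 0.05. Across all genes, both statin arrays lay above both nLDL arrays for 26.5% and below both for 23.5%, so separation of the groups alone is common. The median absolute difference in log2 value between the group means, each over 2 arrays, was 0.11. Between single arrays it was 0.10 for the 2 nLDL arrays and 0.11 for the 2 statin arrays. Means of 2 arrays vary less than single arrays, so the first value cannot be set directly against the others. The median difference of all probe sets was 0.01.

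Array medians lay between 4.84 and 4.91. On the first principal component of the 4 arrays, which held 56.0% of the variance, the statin arrays stood at 28.5 and 18.02 and the nLDL arrays at -25.3 and -21.2. The 3′ probe set of ACTB exceeded its 5′ probe set by 2.13 and 1.92 on the statin arrays and by 1.62 and 1.54 on the nLDL arrays, a gap used as a sign of RNA quality. The same gap of GAPDH was between 0.02 and 0.10 on all 6 arrays. The ACTB gap thus differed between the groups compared, and its part in the differences described below was not tested. The calls needed all 4 arrays. Leaving out any one of them kept 1 residual degree of freedom, and limma then called 0 probe sets, or 2 (both lower) without statin replicate 2, with 2533 to 4210 higher and 2617 to 3946 lower at an unadjusted p under 0.05. A fit that added the control arrays to the estimate of the spread called 566 higher and 768 lower.

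**Figure D1:**
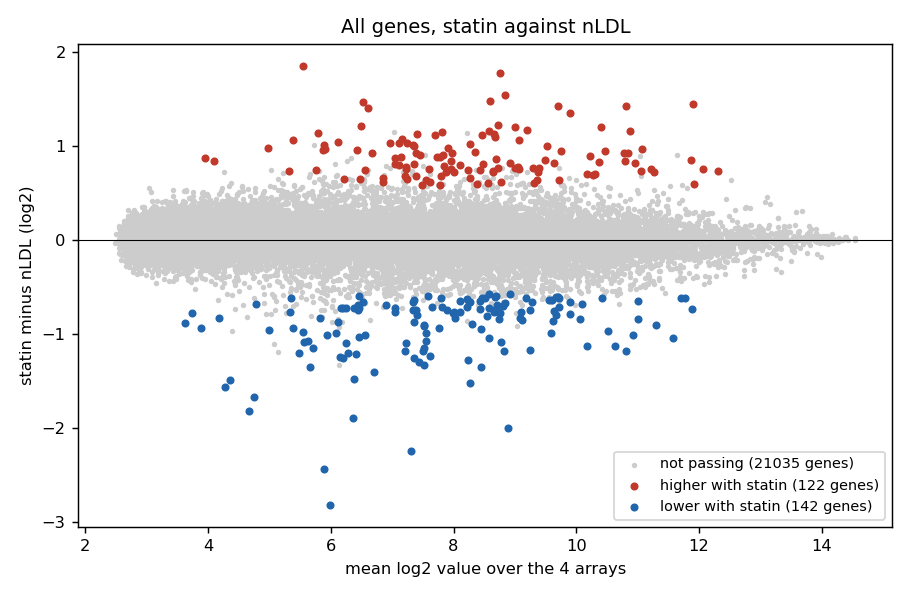
Difference between the statin and nLDL means of each gene (y axis, log2) against its mean log2 value over the 4 arrays (x axis). Each point is 1 of 21299 genes at its brightest probe set, with 122 higher genes in red, 142 lower genes in blue and all others in grey, and the largest falls reach further from 0 than the largest rises.

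Most genes of cholesterol synthesis rose with statin relative to nLDL. Of the 22 enzyme genes in 3 lists (mevalonate arm, squalene to lanosterol, late sterol enzymes), 21 were measured on a probe set of their own, and 12 of these rose, 0 fell and 9 did not pass. CYP51A1 was only on probe sets that name several genes. Over all genes, 0.573% rose. The median difference of the 21 was 0.72, against 0.01 over all genes. Of the 21, 19 had both statin arrays above both nLDL arrays, against 26.5% of all genes. Their differences reached from -0.17 to 0.92. Within the 3 lists the counts were 3 of 9, 3 of 3 and 6 of 9, with medians of 0.58, 0.82 and 0.72.

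In the mevalonate arm, IDI1, which interconverts the isoprenoid building blocks, read 12.29 and 12.30 on the statin arrays and 11.47 and 11.42 on the nLDL arrays. Its difference was 0.85 ± 0.08 (SE, 2 arrays per group, limma adjusted p = 0.0204), or 1.80-fold. The 2 statin arrays nearly coincided and the groups did not overlap. A second probe set of IDI1 gave 0.79 and passed, while 2 dimmer ones gave 0.04 and -0.11 and did not. FDPS, which makes farnesyl diphosphate, read 12.19 and 12.23 with statin against 11.61 and 11.62 with nLDL, a difference of 0.59 ± 0.08 (limma adjusted p = 0.0458). This was the smallest rise among the 12.

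HMGCS1, the enzyme that makes HMG-CoA, had a difference as large as those that passed but its statin arrays spread widely. They read 11.88 and 12.29, against 11.15 and 11.22 with nLDL, and the difference of 0.90 ± 0.14 gave a limma adjusted p of 0.0582. ACAT2, which joins acetyl-CoA units at the entry of the pathway, gave 0.55 ± 0.09 (limma adjusted p = 0.0561). MVD gave 0.58, PMVK 0.24 and GGPS1, which makes geranylgeranyl diphosphate, 0.14, none of them past the threshold. All 9 genes of the arm nevertheless had both statin arrays above both nLDL arrays, against 26.5% of all genes.

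MVK and MMAB, the pair on the shared promoter, both missed the threshold at their brightest probe sets. MVK read 9.19 and 9.04 with statin and 8.62 and 8.59 with nLDL, a difference of 0.51 ± 0.09 (limma adjusted p = 0.0776). MMAB read 10.12 and 10.04 with statin and 9.47 and 9.55 with nLDL, a difference of 0.57 ± 0.09 (limma adjusted p = 0.0571), or 1.48-fold. In neither gene did the groups overlap, and the control arrays lay between, at 8.84 and 8.90 for MVK and at 9.84 and 9.77 for MMAB. The probe sets of MVK disagreed, since 1 of 4 passed with 0.78 (limma adjusted p = 0.0375) and another gave -0.01. For MMAB 2 of 3 probe sets passed, and its differences lay between 0.57 and 0.99, the smallest being that of the brightest probe set.

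The 3 measured genes between farnesyl diphosphate and lanosterol all rose. FDFT1, the squalene synthase, read 12.42 and 12.45 with statin and 11.66 and 11.72 with nLDL, a difference of 0.75 ± 0.09 (limma adjusted p = 0.0269). SQLE, which oxidises squalene, rose by 0.84 ± 0.09 and LSS, which closes the ring, by 0.82 ± 0.09. These genes agreed across probe sets, with 3 of 3 for FDFT1, 3 of 4 for SQLE and 3 of 3 for LSS past the threshold.

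Among the late enzymes, DHCR7, the last step to cholesterol in one branch, rose most. It read 11.15 and 11.32 with statin and 10.31 and 10.33 with nLDL, a difference of 0.92 ± 0.10 (limma adjusted p = 0.0219), or 1.89-fold. MSMO1 (0.73 ± 0.10), NSDHL (0.73 ± 0.08), HSD17B7 (0.72 ± 0.09) and TM7SF2 (0.75 ± 0.10), which remove methyl groups or reduce double bonds on the sterol ring, rose by nearly equal amounts. SC5D, the desaturase of the late pathway, rose by 0.69 ± 0.09. The NSDHL arrays were the tightest of these, at 9.01 on both statin arrays against 8.29 and 8.27. EBP, a sterol isomerase, gave 0.44 and did not pass at its brightest probe set, although 1 of its 4 probe sets passed with 0.58.

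LBR, a sterol reductase of the nuclear envelope that also binds lamin, had the lowest difference of the pathway. It read 11.37 and 11.39 with statin and 11.58 and 11.53 with nLDL, a difference of -0.17 ± 0.08 (limma adjusted p = 0.423). Its statin arrays lay below its nLDL arrays, and the difference did not pass.

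**Figure D2:**
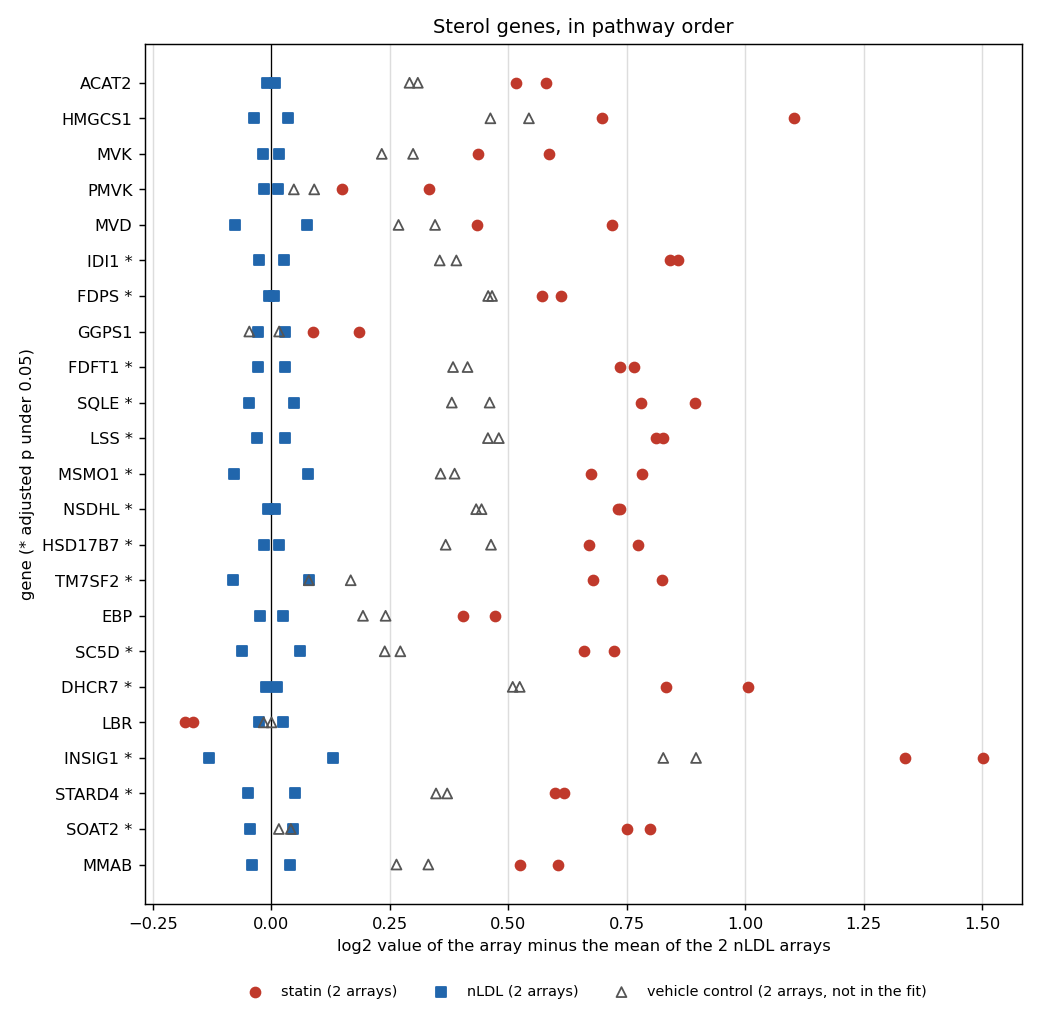
Log2 value of each array minus the mean of the 2 nLDL arrays (x axis) for sterol genes in pathway order (y axis), with statin arrays as red circles, nLDL arrays as blue squares and vehicle control arrays as open triangles. In every starred gene, which passed at an adjusted p under 0.05, both statin arrays lie to the right of both nLDL arrays, whereas those of LBR lie left of 0.

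INSIG1 rose most among all sterol genes, and it was also one of the largest rises of the whole table. It read 10.33 and 10.50 with statin and 8.87 and 9.13 with nLDL, a difference of 1.42 ± 0.12 (limma adjusted p = 0.0147), or 2.67-fold. All 3 of its probe sets passed, with differences from 1.42 to 1.51. The other 7 genes of the list of SREBP processing and sterol sensing did not pass, and the list median was 0.19. SREBF2 gave 0.29, INSIG2 0.28, SREBF1 0.22 and SCAP 0.17, while the Golgi proteases MBTPS1 and MBTPS2 gave 0.06 and 0.10.

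Of the 17 genes of sterol uptake, transport and esterification, 4 rose and 0 fell, with a list median of 0.12. STARD4, a carrier of cholesterol between membranes, read 9.62 and 9.60 with statin against 8.95 and 9.05 with nLDL, a difference of 0.61 ± 0.09 (limma adjusted p = 0.0474). SOAT2, which esterifies cholesterol in liver and intestine, rose by 0.77 ± 0.09, from 8.62 and 8.71 to 9.41 and 9.46. Its partner SOAT1 gave -0.06 and did not pass. NPC1 (0.39) and LIPA (0.35), which release cholesterol from lysosomes, did not pass either.

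The vehicle arrays lay between the 2 group means for all 12 cholesterol synthesis genes that rose. Their mean was nearer to statin in 8 of the 12 and nearer to nLDL in 4. Of all 122 higher genes, 78 had both control arrays between the group means, and only 14 had a control mean nearer to statin. Among those 14 were INSIG1, DHCR7, FDFT1, FDPS, HSD17B7, LSS, MSMO1, NSDHL, SQLE and STARD4, together with VCAN, OLFM3 and RUSC1-AS1, which belong to no sterol list. SOAT2 and TM7SF2 had control means nearer to nLDL. For all 142 lower genes the control mean was nearer to nLDL, and 63 of them had both control arrays above both group means. Over all genes, 17.0% had both controls between and 67.3% had the control mean nearer to nLDL. Genes chosen for a large difference tend to have controls in between, so these counts are a description.

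In the other lipid lists few genes rose. ACSS2, which makes acetyl-CoA from acetate, read 9.32 and 9.35 with statin against 7.85 and 7.86 with nLDL, a difference of 1.48 ± 0.08 (limma adjusted p = 0.0107), or 2.79-fold. It was the 1 gene of 13 in acetyl-CoA supply and fatty acid synthesis to pass, in a list with a median of 0.30. At an unadjusted limma p under 0.05, 7 of the 13 were higher and 0 lower. LIPG, the endothelial lipase, rose by 1.40 ± 0.12, from 5.91 on both nLDL arrays to 7.17 and 7.46. In the list of lipases and angiopoietin-like proteins, 1 of 8 rose and 1 fell.

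In triglyceride synthesis and lipid droplets, 3 of 16 genes rose, with a list median of 0.15. LPIN1, a phosphatidate phosphatase, read 8.97 and 9.07 with statin against 7.89 and 7.92, a difference of 1.11 ± 0.09 (limma adjusted p = 0.0135). PNPLA3, a lipid droplet hydrolase, rose by 0.95 ± 0.09 and CIDEC, which helps droplets fuse, by 0.73 ± 0.09. None of the 10 desaturases and elongases passed with limma, although 4 had an unadjusted p under 0.05, and FADS2, the delta-6 desaturase, had the largest difference (0.52, limma adjusted p = 0.0597). None of the 12 LXR targets passed either (2 higher and 1 lower at an unadjusted p under 0.05), with MYLIP at -0.59 (limma adjusted p = 0.0641) and PLTP at 0.40.

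Of the 15 genes of cobalamin and propionate metabolism, 1 rose and 0 fell. TCN1, a cobalamin binder, read 4.47 and 4.56 with statin against 3.59 and 3.78, a difference of 0.83 ± 0.10 (limma adjusted p = 0.0322), with the nLDL arrays under the dim level of 4.24, below which 40% of probe sets lie. MMUT, the mutase that uses the product of MMAB, gave 0.11, MMAA 0.08 and MMACHC -0.17. The median of the list was 0.11. MMAB had the second largest difference in it.

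The largest falls reached further from 0 than the largest rises. IGFBP1, a secreted binder of insulin-like growth factors, read 6.42 and 6.52 with statin and 4.36 and 4.88 with nLDL, a difference of 1.85 ± 0.17 (limma adjusted p = 0.0181), or 3.60-fold. GDF15, a stress-induced cytokine, rose by 1.78 ± 0.10, from 7.92 and 7.82 to 9.57 and 9.72. S100P, a calcium-binding protein, rose by 1.45 ± 0.09, from 11.16 and 11.20 to 12.68 and 12.58. These genes were named by a rule that admitted only groups without overlap, and the nLDL arrays of IGFBP1 spread more than those of GDF15 and S100P. Only 1 of 2 probe sets of IGFBP1 and 1 of 3 of GDF15 passed.

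The largest fall was in GABRB1, a subunit of the GABA-A receptor. It read 4.42 and 4.74 with statin and 7.36 and 7.44 with nLDL, a difference of -2.82 ± 0.13 (limma adjusted p = 0.00866), or 7.05-fold lower. CRYBG1, a crystallin-domain protein, read 4.46 and 4.88 with statin and 7.13 and 7.08 with nLDL, a difference of -2.44 ± 0.15. For GABRB1 and CRYBG1 the control arrays (7.33 and 7.35, then 7.04 and 7.03) lay beside the nLDL arrays, and the statin arrays stood apart.

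CYP26A1, the P450 that clears retinoic acid, differed in this respect. It read 6.24 and 6.15 with statin, 8.36 and 8.51 with nLDL and 7.57 and 7.69 in controls, and the difference between statin and nLDL was -2.24 ± 0.10 (limma adjusted p = 0.00866). It was the 1 gene of 13 in retinoid clearance and receptors to pass, and the median of that list was 0.08. TNFRSF19, a receptor of the TNF family, fell by 1.67 on the log2 scale, from 5.61 and 5.55 to 3.87 and 3.95. BBOX1, the last enzyme of carnitine synthesis, fell by 1.56, from 5.13 and 4.98 to 3.51 and 3.48. Both genes were below the dim level of 4.24 with statin, and 1 of 3 probe sets of TNFRSF19 passed.

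**Figure D3:**
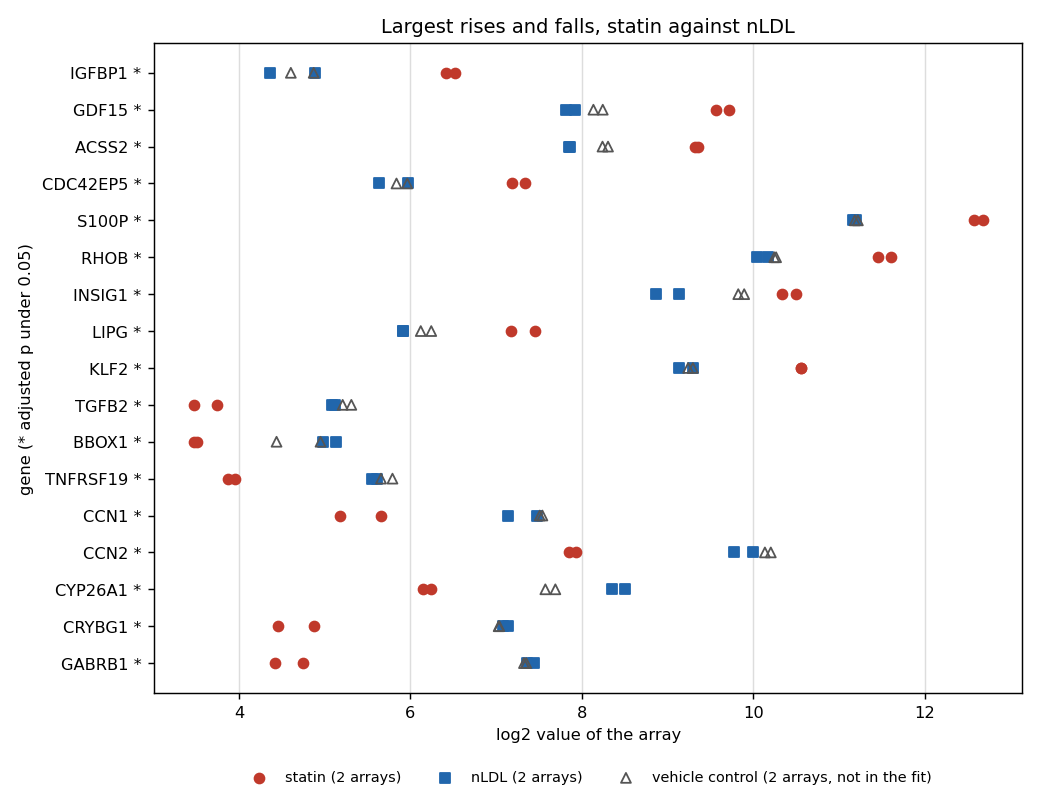
Log2 value of each array (x axis) for 17 genes with the largest rises and falls (y axis), with statin arrays as red circles, nLDL arrays as blue squares and vehicle control arrays as open triangles. The statin arrays lie apart from the other 4 arrays for GABRB1, CRYBG1 and S100P, whereas the control arrays of INSIG1 and CYP26A1 lie between the groups.

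A prenylated protein and an effector of a prenylated protein were among the largest rises. RHOB, a short-lived GTPase, read 11.46 and 11.60 with statin against 10.04 and 10.17 with nLDL, a difference of 1.43 ± 0.10 (limma adjusted p = 0.0133), or 2.69-fold. CDC42EP5, an effector of CDC42, rose by 1.46 ± 0.13, from 5.97 and 5.64 to 7.19 and 7.34. Both genes were named by a rule that admitted only groups without overlap, and 2 of 5 probe sets of RHOB passed.

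Of the 10 prenyltransferases and CAAX processing genes, 0 rose and 1 fell, with a median of 0.02. CHML, an escort protein that presents Rab GTPases for prenylation, read 8.58 and 8.74 with statin against 9.85 and 9.81, a difference of -1.17 ± 0.10 (limma adjusted p = 0.0135). Of its 6 probe sets 2 passed. Its paralogue CHM gave 0.06, but it read 3.47 and 3.10 with statin and 3.24 and 3.22 with nLDL. These values are under the dim level, so CHM cannot be set against the fall of CHML. The subunits of farnesyl and geranylgeranyl transferases, FNTA, FNTB, PGGT1B and RABGGTB, lay between -0.09 and 0.21. The value of 0.21 was that of FNTB, which was also under the dim level in both groups, so its size is uncertain.

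Several targets of the transcription coactivators YAP and TAZ fell. Of 21 measured genes (NUAK2 was only on a probe set naming several genes), 7 fell and 0 rose, against 0.667% of all genes lower, and the list median was -0.38. CCN2, a matricellular protein and a standard readout of YAP, read 7.85 and 7.93 with statin and 10.00 and 9.77 with nLDL, a 3.99-fold lower level (SE 0.11 on the log2 scale, limma adjusted p = 0.0107). CCN1, its relative, fell by 1.89, from 7.48 and 7.14 to 5.18 and 5.66. TGFB2, a growth factor, was 2.82-fold lower, from 5.12 and 5.08 to 3.74 and 3.47, under the dim level, and 2 of its 4 probe sets passed.

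AMOTL2, which binds YAP, fell by 1.35, and CRIM1 by 1.26, ANKRD1 by 0.88 and LATS2, a kinase that restrains YAP, by 0.61. ANKRD1 was under the dim level of 4.24 in both groups, so the size of its fall is uncertain. Others did not pass, among them IGFBP3 (-0.64), PTPN14 (-0.52) and MYOF (-0.50), as well as GADD45A (0.00), ASAP1 (0.02) and AXL (0.17). At an unadjusted limma p under 0.05, 12 of the 21 were lower and 1 higher. NT5E gave 0.38, the highest of the list. For 6 of the 7 genes that fell, the control arrays lay above both group means.

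Genes of SRF and the actin cytoskeleton included 3 of 18 that fell and 0 that rose, with a median of -0.23. FHL2, a LIM-domain protein, read 5.55 and 5.50 with statin and 6.75 and 6.79 with nLDL, a difference of -1.25 ± 0.08 (limma adjusted p = 0.0129). MYL9, a myosin light chain, fell by 1.20, and FLNA, an actin crosslinker, by 0.76. Only 1 of the 2 probe sets of MYL9 passed, and the other gave 0.19, whereas all 3 of FLNA passed. Values for the actins were -0.15 for ACTB and -0.23 for ACTG1, neither past the threshold. ACTB is also the gene whose 3′ and 5′ probe sets differed more on the statin arrays.

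Immediate early genes and Krüppel-like factors included rises. Of 24 immediate early and ERK feedback genes, 3 rose and 0 fell, with a median of 0.21. JUN, a subunit of AP-1, read 11.53 and 11.58 with statin and 10.56 and 10.63 with nLDL, a difference of 0.97 ± 0.09 (limma adjusted p = 0.0159). DUSP4, a phosphatase of MAP kinases, rose by 1.00 ± 0.11 and EGR1 by 0.67 ± 0.09, while FOS gave -0.05.

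Of 13 Krüppel-like factors, 2 rose and 0 fell, with a median of 0.38. KLF2 read 10.56 on both statin arrays and 9.14 and 9.30 on the nLDL arrays, a difference of 1.34 ± 0.09 (limma adjusted p = 0.0133), or 2.54-fold. KLF6 rose by 0.94 ± 0.09. KLF4 gave 0.84 (limma adjusted p = 0.0602), with nLDL arrays at 5.67 and 6.02 and statin arrays at 6.60 and 6.76.

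**Figure D4:**
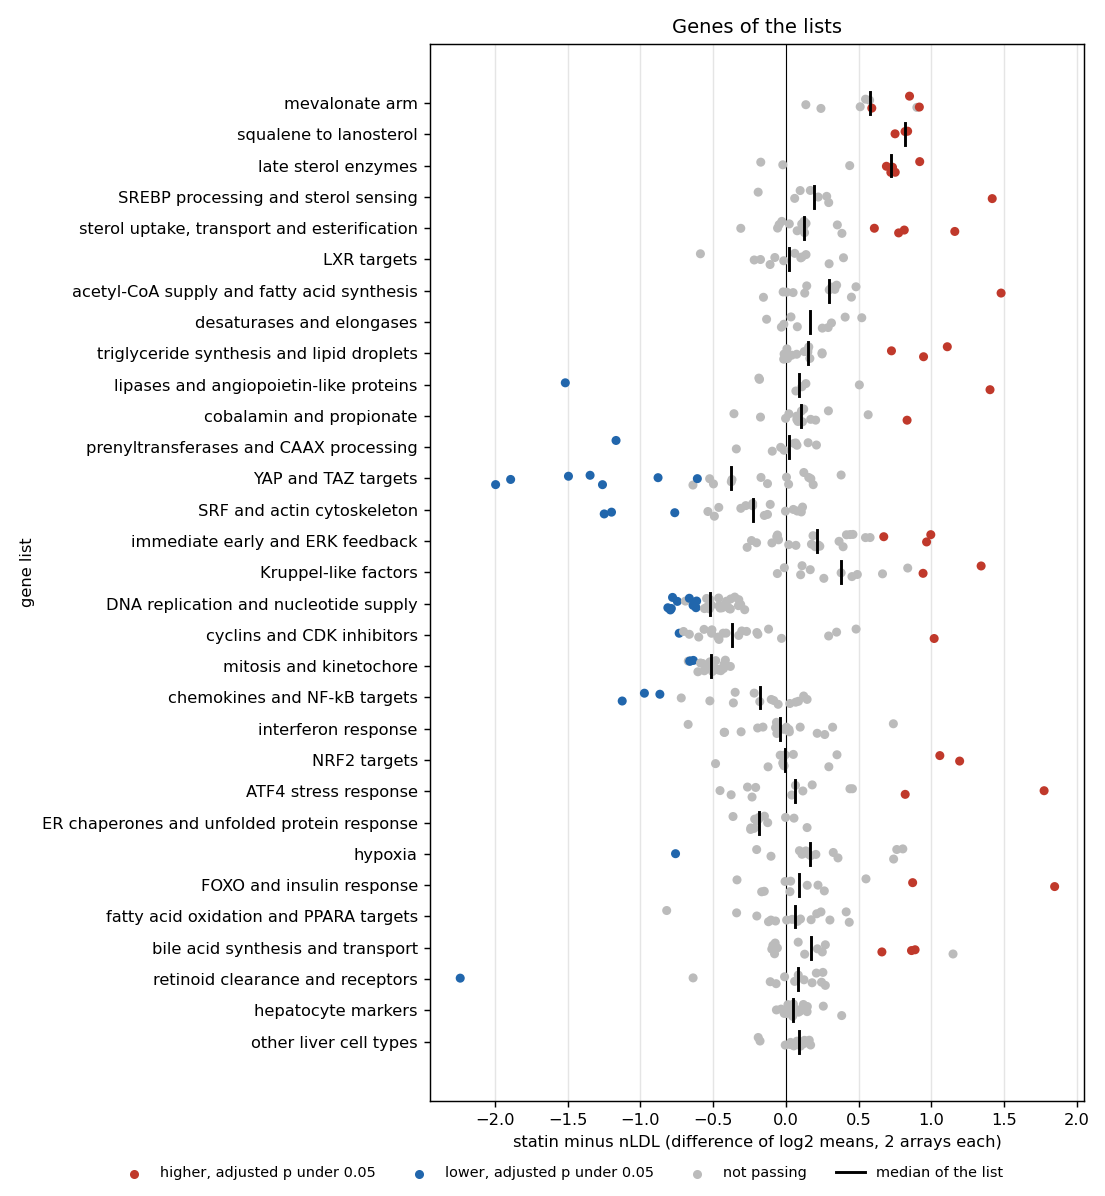
Statin minus nLDL (x axis, difference of log2 means of 2 arrays each) for each measured gene of the gene lists (y axis), with higher genes in red, lower genes in blue, those not passing in grey and the list median as a black bar. Medians of the 3 cholesterol synthesis lists lie at 0.58, 0.82 and 0.72, and those of DNA replication and mitosis at -0.52 and -0.51.

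All 34 genes of DNA replication and nucleotide supply had both statin arrays below both nLDL arrays, against 23.5% of all genes, and 9 of them fell by the test while 25 did not pass. The differences lay between -0.81 and -0.28, with a median of -0.52. All 34 had an unadjusted p under 0.05. In bulk RNA, fewer dividing cells and less of these transcripts in each cell cannot be told apart.

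CDC6, which loads the replicative helicase, read 8.06 and 8.23 with statin and 8.96 and 8.95 with nLDL, a difference of -0.81 ± 0.10 (limma adjusted p = 0.0300). MCM10, an initiation factor, read 9.25 and 9.29 against 10.06 and 10.07, a difference of -0.79 ± 0.08. UHRF1, which maintains DNA methylation behind the fork, fell by 0.79 and TK1, the thymidine kinase of S phase, by 0.78. RFC5, CDC45, ORC1, FEN1 and MCM5 also fell, by 0.61 to 0.75. PCNA gave -0.38 and POLA1 -0.28, the smallest difference of the list.

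All 22 genes of mitosis and kinetochore were below the nLDL arrays too, with differences between -0.67 and -0.38 and a median of -0.51, and 3 of them fell by the test. BUB1, a checkpoint kinase, read 8.94 and 8.96 with statin and 9.64 and 9.59 with nLDL, a difference of -0.66 ± 0.08 (limma adjusted p = 0.0361). Of the 5 probe sets of BUB1 2 passed. CENPE and KIF20A, both mitotic kinesins, fell by 0.66 and 0.64. MKI67, the proliferation marker, gave -0.47 and did not pass. Most members of both lists missed the threshold one by one, and no replication gene kept its call when any one of the 4 arrays was left out of the fit of those arrays.

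Among 22 cyclins, CDK inhibitors and E2F factors, 1 rose and 1 fell, with a median of -0.37. CDKN1A, the p21 inhibitor of cyclin-dependent kinases, read 8.81 and 8.73 with statin and 7.63 and 7.87 with nLDL, a difference of 1.02 ± 0.11 (limma adjusted p = 0.0238). E2F8 fell by 0.73. CCND1 gave -0.19 and CDKN1B, the p27 inhibitor, -0.03.

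**Figure D5:**
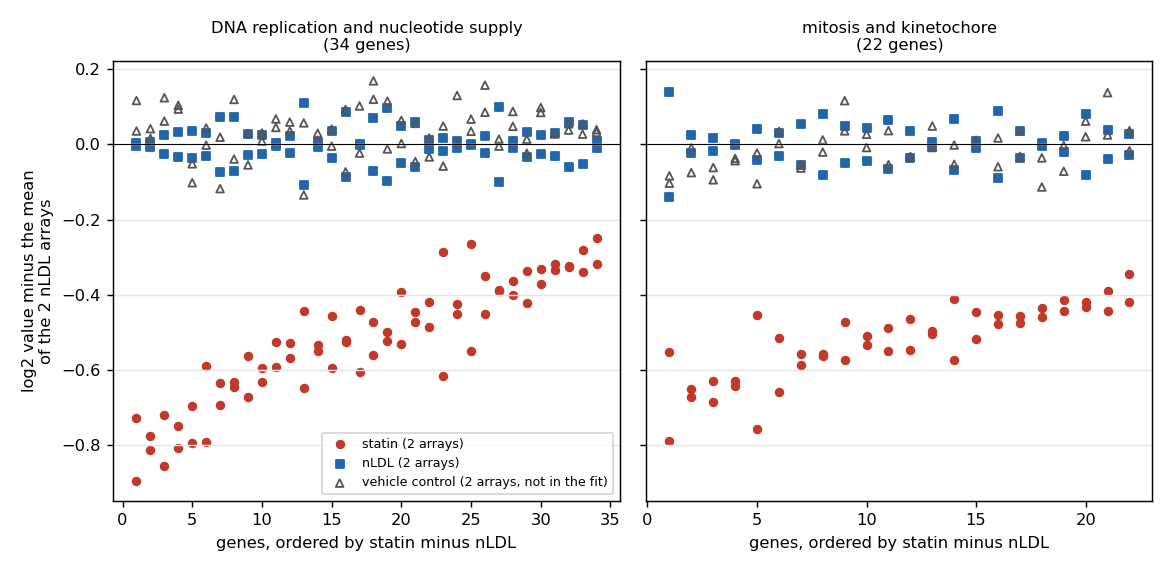
Log2 value of each array minus the mean of the 2 nLDL arrays (y axis) for 34 DNA replication genes (left) and 22 mitosis genes (right), ordered by difference (x axis), with statin arrays as red circles, nLDL arrays as blue squares and vehicle control arrays as open triangles. Both statin arrays lie below both nLDL arrays for all 56 genes, and the control arrays lie near 0.

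Of 17 chemokines and NF-κB targets, 3 fell and 0 rose, with a median of -0.18. CXCL1 read 9.52 and 9.70 with statin and 10.84 and 10.63 with nLDL, a difference of -1.13 ± 0.11 (limma adjusted p = 0.0211). CXCL6 fell by 0.97 and CXCL8 by 0.87, all of them neutrophil chemokines. CXCL2 (-0.52) and CXCL3 (-0.72) did not pass, and CCL20 gave 0.15. None of 18 interferon response genes passed with limma (3 higher and 4 lower at an unadjusted p under 0.05), with OAS1 at 0.74 (limma adjusted p = 0.0592) and IFIT1 at -0.67.

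In stress programmes, single genes rose. Of 12 NRF2 targets, 2 rose and 0 fell, with a median of -0.01. NQO1, a quinone reductase, read 9.62 and 9.59 with statin and 8.48 and 8.34 with nLDL, a difference of 1.19 ± 0.09 (limma adjusted p = 0.0135), and AKR1B10 rose by 1.06 ± 0.11. HMOX1 gave -0.48 and GCLM -0.02. Of 13 ATF4 stress response genes, 2 rose (GDF15, and DDIT4 by 0.82 ± 0.11) and 0 fell, with a median of 0.07.

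None of 13 ER chaperones and unfolded protein response genes passed with limma (4 lower at an unadjusted p under 0.05), with PDIA4 at -0.36 and CRELD2 at -0.24 and a median of -0.19. Of 14 hypoxia genes, 1 fell and 0 rose, with a median of 0.16. That gene was PFKFB3, a regulator of glycolysis, which fell by 0.76. PFKFB4 and ADM gave 0.74 and 0.76 and did not pass.

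Liver functions changed in few genes. In bile acid synthesis and transport, 3 of 14 rose and 0 fell, with a median of 0.17. NR0B2, the repressor SHP, read 9.11 and 9.15 with statin and 8.28 and 8.25 with nLDL, a difference of 0.86 ± 0.08 (limma adjusted p = 0.0204). SLC51B, a subunit of a bile acid exporter, rose by 0.89 ± 0.09 and FGF19, a hormone that restrains bile acid synthesis, by 0.66 ± 0.09. The other subunit of that exporter, SLC51A, gave 1.15 but its nLDL arrays read 6.16 and 6.76, and it did not pass (limma adjusted p = 0.0690).

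In the list of FOXO and insulin response, 2 of 12 rose and 0 fell, with a median of 0.09. Besides IGFBP1, this was PCK1, which opens gluconeogenesis, with 4.32 and 4.45 with statin against 3.42 and 3.61, a difference of 0.87 ± 0.11 (limma adjusted p = 0.0320), with the nLDL arrays under the dim level. G6PC1 gave -0.17. None of 16 fatty acid oxidation and PPARA genes passed (3 higher and 2 lower at an unadjusted p under 0.05), with ACADL at -0.82 and CREB3L3 at 0.44 and a median of 0.06.

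None of the 18 hepatocyte markers passed with limma at its brightest probe set, and 1 was higher at an unadjusted p under 0.05. ALB read 14.2 to 14.3 on all 4 arrays and AFP read 14.1 to 14.2, and markers of the list lay between 7.64 and 14.29 over both groups. AHSG (0.38) and APOC3 (0.26) had the largest differences, and the list median was 0.05. A second, dimmer probe set of AHSG passed with 0.69 (limma adjusted p = 0.0402). The 15 markers of other liver cell types had a median of 0.09 with none passing, also without adjustment. Of the 15 differences, 12 lay above 0 and 3 below, and they reached from -0.19 to 0.17. Values of this list lay between 3.51 and 10.83 on the statin arrays and between 3.59 and 10.70 on the nLDL arrays. The macrophage markers CD163 (-0.19) and CD14 (-0.18) were the furthest from 0 below, and PTPRC, the leukocyte marker, read 4.55 to 4.65 on all 4 arrays.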

How the data were processed

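The deposited values are log2 intensities per probe set, which the authors made by robust multi-array averaging in GeneSpring GX 11.5. They came from the series table. A second deposited table holds 6 value columns that match no sample label and supplied only annotation, with older symbols replaced by those of RefSeq (GRCh38.p14) through Entrez numbers. Without the 62 control probe sets, 54613 entered the tests. A gene is its brightest probe set with 1 symbol.

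Statin was compared with nLDL on 4 arrays by limma 3.58.1 (lmFit and eBayes, R 4.3.3, 2 residual and 4.27 prior degrees of freedom, two-sided), with p-values adjusted after Benjamini and Hochberg over every probe set at a threshold of 0.05. SE is that of the fitted difference. An exact permutation test of 2 against 2 cannot go below a two-sided p of 0.333 and was left out. The scripts were first tested on simulated data. Arrays have no counting depth, and their number limits the precision.

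The comparison, the 32 gene lists and the rule for named genes were chosen with earlier results of these data known. The rule took 10 rises and 10 falls of greatest size that passed, had groups that did not overlap and exceeded the dim level (40th percentile of means, 4.24), then sterol list members that passed with MMAB and MVK, and up to 4 members of each other list. Further members were chosen after their values were seen. A few genes and 1 gene list are counted but not reported here. Promoters came from RefSeq windows. Alternatives covered normalization, filter, prior, the methods' t-test, the replicate block and omission of each array. The authors' own comparisons were not used.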

Additional observations from a re-analysis of the deposited data

Results flagged for a closer look

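A signal outside the comparison came from the actin control probe sets of the arrays. The 3′ probe set of ACTB exceeded the 5′ one by a mean of 2.02 with statin, 1.58 with nLDL and 1.63 with vehicle. The statin mean was thus 0.39 above that of the vehicle arrays on the log2 scale. For GAPDH the corresponding means were 0.06, 0.09 and 0.08. The part of the ACTB gap in the differences between statin and nLDL was not tested.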

How the results depend on the processing

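No alternative turned the direction of a probe set that passed or of any of the 85 named genes. Most could not, because they used the same difference of group means. Omission of 1 array cannot turn it where the groups do not overlap, as in all 85 named genes. Only renewed normalization, centring and the mean over probe sets could have turned a named gene. Counts of calls depended on the setting. Counts are given in 4 kinds: probe sets higher with statin than with nLDL (207 as reported), probe sets lower with statin than with nLDL (251), cholesterol synthesis genes higher with statin (12) and DNA replication genes lower with statin (9). With all 6 arrays in the fit, 566 were higher, 768 lower and 22 replication genes lower. With the replicate block, where the replicate number of the titles entered the fit, the 4 counts were 81, 90, 4 and 0, and 40 of the 69 named genes that passed kept their call. Deviations of arrays with the same number correlated by 0.09 over all probe sets and by 0.14 over those above the dim level, and 2 pairs are too few to show that the numbers pair the arrays. Centring on array medians gave 316 higher and 504 lower, and leaving out the dimmest 40% of probe sets gave 504, 645 and 20 replication genes. A trended and robust prior gave 1347, 1867 and 33 replication genes. The methods' t-test gave 2477, 2623 and 30 replication genes unadjusted at a fold of 1.1, and 0, 2, 0 and 0 after Benjamini-Hochberg adjustment. The mean over the probe sets of a gene gave 22 replication genes. For these settings the cause was not tested. Every count stayed within 1.5 times of the reported one after renewed quantile normalization, cyclic loess or a fold limit of 1.5. Leaving out each of the 4 arrays in turn gave 0 higher and 0 to 2 lower, with 0 cholesterol synthesis and 0 replication genes, and the lone array of a group was assumed to vary like the other group. A further setting, chosen after seeing the data, left out each array from the fit with all 6. Without nLDL replicate 1 the 4 counts were 24, 21, 0 and 0, without nLDL replicate 2 they were 68, 68, 1 and 0, without statin replicate 1 they were 81, 77, 6 and 0, and without statin replicate 2 they were 113, 197, 7 and 6. In all 4 of these fits 18 of the 69 named genes that passed were called, among them INSIG1, ACSS2, GDF15, RHOB, KLF2, NQO1, CCN2, FHL2, GABRB1, CRYBG1 and CYP26A1, and 18 were called in none. With 2 arrays per group, a difference that missed the threshold is not shown to be absent.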
